A study of Homo sapiens with 2 samples.

Results

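The collagen genes were examined in BEAS-2B, a line of human airway epithelium immortalised in culture, and in BEAS-2B cells that overexpress TRPV3, a cation channel permeable to calcium. The members are all genes whose symbol reads COL, a number, A and a number, without COL17A1, and they number 43 of 58051 annotated genes. They were sorted by protein structure into 11 fibrillar genes, 8 basement membrane genes, 10 FACIT genes and 14 others. RNA was sequenced from 1 library of parental cells (genotype label WT, passage 20 to 30) and 1 library of the TRPV3-overexpressing line (TRPV3-OE, passage 4 to 8). Both lines grew in LHC-9 medium on a coat that itself held collagen and fibronectin, and were snap frozen at confluence; the labels name no added agent. The labels do not say how the TRPV3-OE line was made or whether it is 1 clone, and passage and genotype cannot be told apart.

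Collagens are secreted or membrane-bound matrix proteins in which chains with a repeated glycine pattern wind into a trimeric helix. Fibrillar collagens form the fibres of connective tissue, while type IV collagen forms the sheet-like network of the basement membrane on which epithelia rest. FACITs (fibril-associated collagens with interrupted helices) sit on the surface of fibres, and the remaining types form anchoring fibrils, beaded filaments, hexagonal networks or transmembrane proteins. Airway epithelial cells contribute mainly basement membrane and anchoring collagens, whereas fibroblasts are the main source of fibrillar types.

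Total counts were 17450658 and 17477953 in the parental and TRPV3-OE libraries. TRPV3 had 26 parental and 54077 TRPV3-OE counts, as labelled. Since each group is a single library, differences cannot be set against a spread between replicates and carry no p-value. Values are counts, counts per 1000000 after TMM scaling (CPM), or length-scaled levels that sum to 1000000 over all genes (TPM). Intervals are exact 95% intervals and cover counting error alone. They treat counts as independent, which PCR copies are not, so they may be too narrow. A gene is called measured where both libraries together hold at least 100 counts of it. It is called higher or lower where its level differed at least 2-fold and the interval of the ratio lay wholly on that side of 1. The epithelial markers EPCAM, CDH1, KRT5, KRT7, KRT8, KRT18 and KRT19 were present in both libraries, summing to 7522 and 7253 CPM. The 10 fibroblast markers summed to 12.96 and 7.02 CPM with LUM and PRRX1 at 0 in both libraries. ACTA2 made up most of that sum (8.06 and 5.62 CPM), and below the minimum THY1 had 19 and 2 counts, FAP 25 and 7, TAGLN 24 and 11 and MFAP5 9 and 0. DCN had 5 and 0 counts, PDGFRB 2 and 4 and PDGFRA 0 and 1. The 6 endothelial markers summed to 16.7 and 3.26 CPM, with KDR, TEK and CLDN5 at 0 in both. CDH5 made up most of that sum (15.6 and 1.97 CPM, 268 and 35 counts), while PECAM1 had 14 and 23 counts and VWF 4 and 0. The 5 immune markers summed to 0.117 and 0.168 CPM. The part of such cells in the results was not tested, and in bulk RNA fewer cells of a type cannot be told apart from less RNA per cell.

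The collagen genes as a whole kept a similar summed level, but the genes behind that sum differed between the libraries. Members held 17871 counts in the parental library (0.102% of all, exact binomial interval 0.101 to 0.104%) and 17160 counts in the TRPV3-OE library (0.0982%, 0.0967 to 0.0997%). Per length they summed to 399 and 374 TPM. Of the 43 genes, 13 were measured, 9 had 10 to 99 summed counts, 10 had 1 to 9, and 11 had no count in either library. For a gene without a count the limit that a count of 0 allows (3 counts) was 0.175 CPM (parental) and 0.168 CPM (TRPV3-OE). Of the 13 measured genes 6 were lower and 3 higher in TRPV3-OE, and the 9 called genes stand against 10.7% called among 11466 measured genes. In the same background 5.35% of genes were lower and 5.31% higher. At a 4-fold limit 4 members were lower and 1 was higher, beside 1.39% and 1.32% of all measured genes. The median log2 ratio of TRPV3-OE over parental was −0.58 over the 13 members and −0.03 over all measured genes, with members reaching from −6.96 to 3.47.

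**Figure D1:**
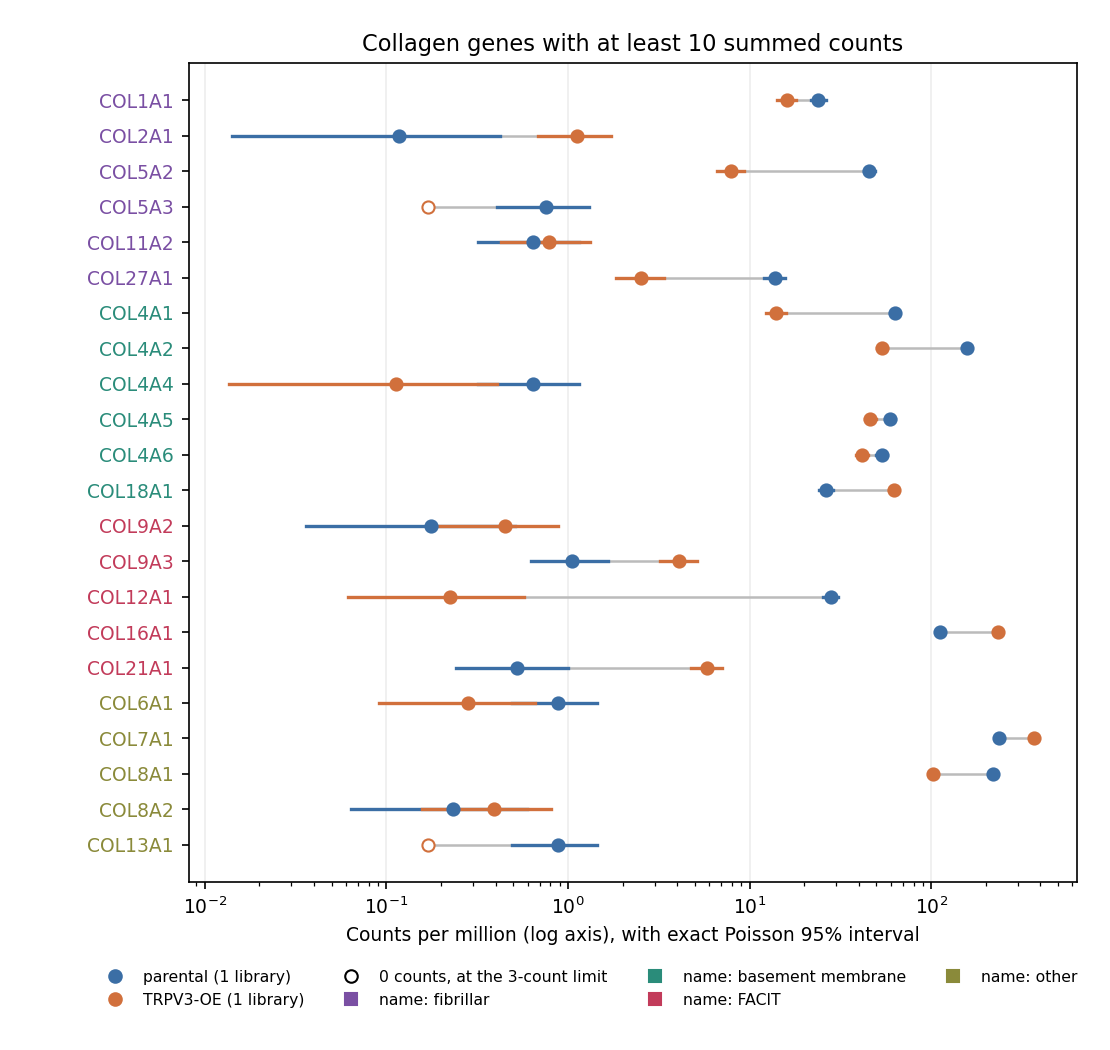
Level of each collagen gene with at least 10 summed counts in the parental (blue) and TRPV3-OE (orange) library, in CPM on a log axis with exact Poisson 95% intervals; gene names are coloured by structural group and open points mark 0 counts and are drawn at the 3-count limit. COL12A1 lies at 27.97 and 0.225 CPM, while COL7A1 and COL16A1 lie furthest right in the TRPV3-OE library.

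Type IV collagen, the network protein of basement membranes, is encoded by gene pairs that lie head to head, and the expressed pairs differed from each other. The starts of COL4A1 and COL4A2 in the RefSeq windows (GRCh38.p14) are 127 bases apart, and their promoter windows of 300 bases (250 before and 50 after the start) share 226 bases. Those of COL4A6 and COL4A5 lie 380 bases apart and share 121 bases. The 4 windows are shown because each pair reads out from 1 stretch of DNA in opposite directions. Capitals mark CCAAT boxes (CCAAT) and GC boxes (GGGCGG) found on either strand, so that ATTGG and CCGCCC are the same motifs read on the other strand.
COL4A1, chr13:110307108-110307407, minus strand: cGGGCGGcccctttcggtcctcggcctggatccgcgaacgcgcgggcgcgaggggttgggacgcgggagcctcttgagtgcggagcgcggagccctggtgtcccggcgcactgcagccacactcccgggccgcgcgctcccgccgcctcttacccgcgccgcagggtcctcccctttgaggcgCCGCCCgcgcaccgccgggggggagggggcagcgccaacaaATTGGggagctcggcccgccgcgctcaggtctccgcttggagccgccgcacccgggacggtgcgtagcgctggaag
COL4A2, chr13:110307034-110307333, plus strand: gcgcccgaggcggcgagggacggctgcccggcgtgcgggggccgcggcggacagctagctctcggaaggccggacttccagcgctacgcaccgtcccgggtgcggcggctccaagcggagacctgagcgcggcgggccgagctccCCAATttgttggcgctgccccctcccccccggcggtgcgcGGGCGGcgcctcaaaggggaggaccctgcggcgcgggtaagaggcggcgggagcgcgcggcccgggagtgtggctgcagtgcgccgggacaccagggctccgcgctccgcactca
COL4A6, chrX:108439409-108439708, minus strand: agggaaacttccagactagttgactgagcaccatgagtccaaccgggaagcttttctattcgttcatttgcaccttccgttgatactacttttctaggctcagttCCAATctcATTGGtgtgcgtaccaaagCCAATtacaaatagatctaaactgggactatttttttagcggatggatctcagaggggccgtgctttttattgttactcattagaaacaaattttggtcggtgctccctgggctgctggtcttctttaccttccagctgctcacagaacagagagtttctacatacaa
COL4A5, chrX:108439588-108439887, plus strand: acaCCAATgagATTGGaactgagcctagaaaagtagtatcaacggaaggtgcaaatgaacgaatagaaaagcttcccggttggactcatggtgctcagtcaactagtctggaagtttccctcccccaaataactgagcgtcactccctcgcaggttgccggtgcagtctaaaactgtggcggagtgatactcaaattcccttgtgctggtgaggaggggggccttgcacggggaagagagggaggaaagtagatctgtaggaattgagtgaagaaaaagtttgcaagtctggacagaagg
The COL4A1 and COL4A2 windows are rich in G and C (76.7% and 77.7%), with 1 CCAAT box each and 2 and 1 GC boxes. The COL4A6 and COL4A5 windows hold 43.7% and 49.3% G and C, with 3 and 2 CCAAT boxes and 0 GC boxes each. The boxes of COL4A2 lie in the shared bases and are also counted for COL4A1. Likewise those of COL4A5 are also counted for COL4A6.

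Both genes of the chromosome 13 pair were lower in TRPV3-OE. COL4A2 (110305812 to 110513027, plus strand, GRCh38), which encodes the alpha 2 chain of the commonest type IV trimer, had 2706 parental and 950 TRPV3-OE counts, or 158 and 53.3 CPM. That is a 2.96-fold lower level, with a log2 ratio of −1.57 (−1.67 to −1.46). COL4A1 (110148963 to 110307149, minus strand), which encodes the alpha 1 chain of the same trimer, had 1077 and 249 counts and a log2 ratio of −2.17 (−2.37 to −1.97). The ratio of COL4A1 lay further from 1 than that of COL4A2, and their intervals did not overlap. Per length, COL4A2 exceeded COL4A1 2.36-fold (2.20 to 2.54) in the parental library and 3.59-fold (3.12 to 4.14) in the TRPV3-OE library. The deposited gene models of the pair overlap on opposite strands by 1338 bases, and the counting used strand.

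The pair on chromosome X differed less between the libraries, and its genes had closely similar ratios. COL4A5 (108439844 to 108697545, plus strand), the chain mutated in X-linked Alport syndrome, had 1013 and 825 counts and a log2 ratio of −0.35 (−0.49 to −0.22). COL4A6 (108155607 to 108439497, minus strand), which joins COL4A5 in epithelial basement membranes, had 913 and 742 counts and a log2 ratio of −0.36 (−0.50 to −0.21). COL4A5 exceeded COL4A6 1.18-fold per length in both libraries (1.08 to 1.29 parental, 1.07 to 1.31 TRPV3-OE). The balance between the pairs therefore differed. COL4A5 stood at 0.881 of COL4A1 per length in the parental library (0.808 to 0.961) and at 3.10 in the TRPV3-OE library (2.69 to 3.59). The remaining pair on chromosome 2, COL4A4 and COL4A3, which builds the kidney and lung network, was near the detection limit with 11 and 2 counts for COL4A4 and 1 and 0 for COL4A3.

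**Figure D2:**
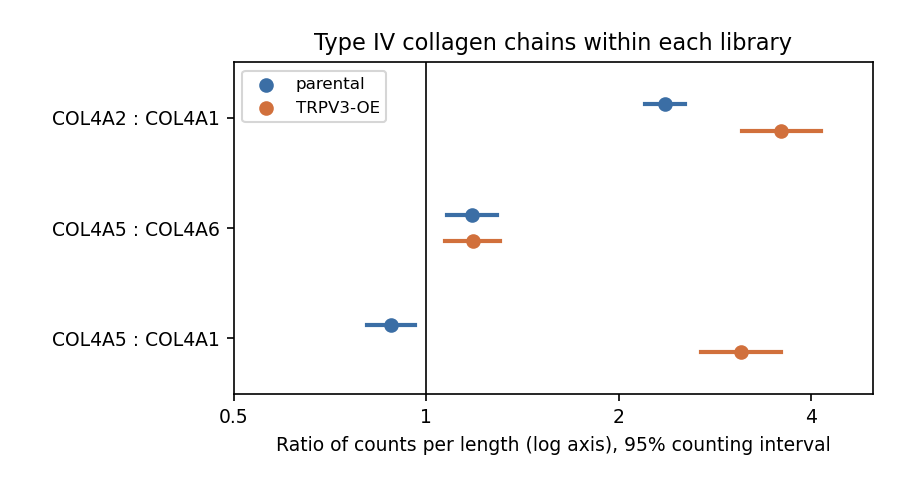
Ratio of counts per length between type IV collagen genes within each library (log axis, 1 library per group, bars are 95% counting intervals). COL4A5 to COL4A6 sits at 1.18 in both libraries, whereas COL4A2 to COL4A1 and COL4A5 to COL4A1 are further right in TRPV3-OE.

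Types XV and XVIII, the multiplexins that lie at the basement membrane, were not alike. COL18A1 (chromosome 21, 45405137 to 45513720), whose C-terminal fragment is endostatin, was higher in TRPV3-OE, unlike the type IV genes, with 452 parental and 1107 TRPV3-OE counts, 26.4 and 62.2 CPM. Its log2 ratio was 1.24 (1.08 to 1.40), a 2.36-fold higher level. The 50 measured genes nearest to COL18A1 had a median log2 ratio of 0.27, and after its subtraction COL18A1 stood at 0.96, below the 2-fold limit. COL15A1 had no count in either library. Over the 5 measured basement membrane genes 2 were lower and 1 higher, beside 5.35% and 5.31% of all measured genes. The median log2 ratio of the 5 was −0.36, or −0.96 over the type IV genes alone.

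COL7A1 and COL8A1 were the leading collagens of the parental library and differed in opposite directions. COL7A1 (chromosome 3, 48564073 to 48595267, minus strand) encodes the anchoring fibrils that tie the basement membrane to the stroma below. It had 4036 and 6597 counts, 236 and 370 CPM, and a log2 ratio of 0.65 (0.60 to 0.71), 1.57-fold higher and under the limit for a call. COL8A1 (chromosome 3, 99638475 to 99799226, plus strand), a short-chain network collagen, had 3737 and 1828 counts and was 2.13-fold lower (log2 ratio −1.09, −1.17 to −1.01). Per length COL8A1 was the highest collagen of the parental library at 83.4 TPM, followed by COL7A1 at 76.2 TPM. By counts COL7A1 was the higher of the pair in both libraries. In TRPV3-OE COL7A1 came first at 125 TPM and COL8A1 was behind COL16A1 at 41.0 TPM. Its partner gene COL8A2 had 4 and 7 counts.

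The fibrillar genes, which form the fibres of connective tissue, had 2 lower and 0 higher among 3 measured members, beside 5.35% and 5.31% of all measured genes. Of the fibroblast markers, ACTA2, THY1, FAP, TAGLN and MFAP5 had fewer counts in TRPV3-OE, and LUM and PRRX1 had none. DCN (5 and 0 counts), PDGFRB (2 and 4) and PDGFRA (0 and 1) had too few counts to tell a direction. The part of these markers in the result was not tested. COL5A2 (chromosome 2, 189031896 to 189179879, minus strand), a chain of the type V collagen that sets fibre diameter, had 783 and 140 counts, 45.7 and 7.86 CPM, and was 5.82-fold lower (log2 ratio −2.54, −2.81 to −2.28). COL27A1 (chromosome 9, 114155560 to 114312511, plus strand), a cartilage-type fibrillar collagen, had 235 and 45 counts and was 5.43-fold lower (log2 ratio −2.44, −2.93 to −1.98). COL1A1 (chromosome 17, 50183289 to 50201632, minus strand), the alpha 1 chain of type I collagen, had 410 and 285 counts with a log2 ratio of −0.58 (−0.80 to −0.36). The 50 genes nearest to COL1A1 had a median log2 ratio of −0.44, so that −0.14 was left after its subtraction. Summed over the 11 fibrillar genes, the level was 36.2 TPM in the parental and 12.1 TPM in the TRPV3-OE library.

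The partner chains of these trimers were almost absent. COL1A2, which supplies the remaining chain of the usual type I trimer, had 1 and 2 counts, and COL1A1 exceeded it per length 466-fold (83.1 to 18443) in the parental library and 162-fold (44.4 to 1343) in TRPV3-OE. COL5A1, the usual partner of COL5A2, had 5 and 0 counts, and COL5A2 exceeded it 245-fold per length (104 to 756) in the parental library. COL3A1, 19149 bases from COL5A2 on chromosome 2, had no count in either library, as had COL11A1. COL5A3 had 13 and 0 counts, and the interval of its log2 ratio ended at −1.66. COL2A1, the cartilage collagen, had 2 and 20 counts, a 9.62-fold higher level with a wide interval (log2 ratio 3.27, 1.22 to 6.41). COL11A2 had 11 and 14 counts.

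**Figure D3:**
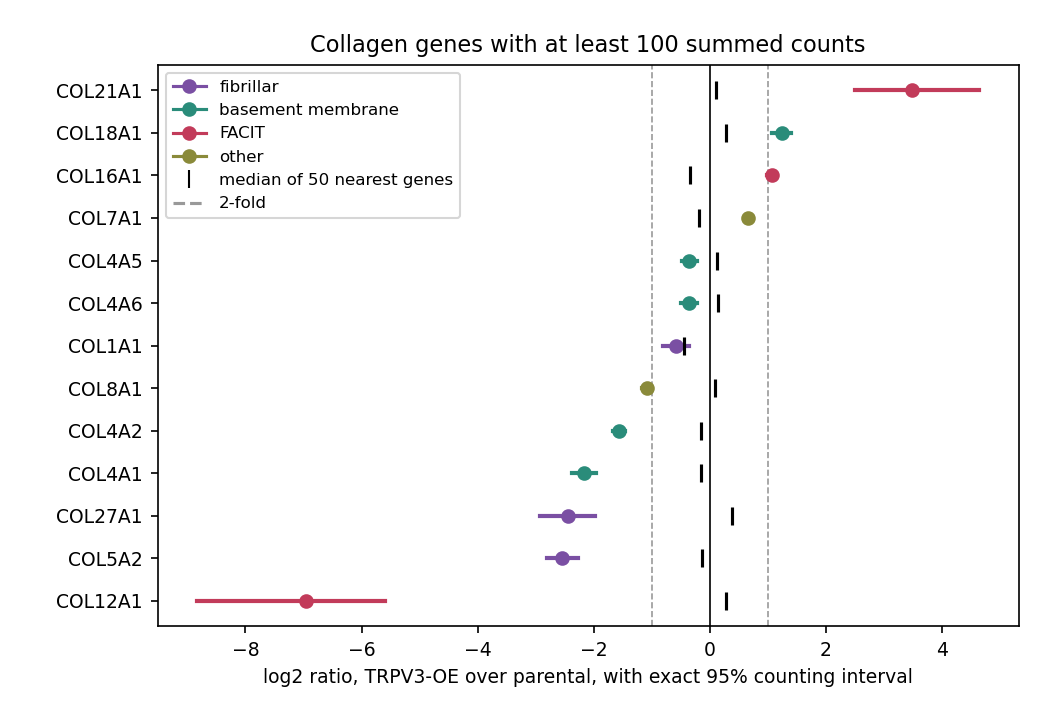
log2 ratio of TRPV3-OE over parental for the 13 measured collagen genes with exact 95% counting intervals, coloured by structural group; black ticks mark the median of the 50 nearest measured genes and dashed lines 2-fold. COL12A1 (−6.96) and COL21A1 (3.47), both FACITs, lie at the ends.

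The FACIT group held both extremes of the family. COL12A1 (chromosome 6, 75084326 to 75206051, minus strand), which binds type I fibres and is abundant in tendon and stroma, had 479 and 4 counts, with a log2 ratio of −6.96 (−8.84 to −5.59). Among measured genes ranked per length it stood at percentile 18.6 in the parental library and at percentile 0.0785 in TRPV3-OE. It passed the count minimum through the parental library alone. Its low rank in TRPV3-OE thus follows from that minimum and its 4 counts, and adds nothing to the ratio. COL21A1 (chromosome 6, 56056590 to 56394094, minus strand), a short FACIT of vessel walls, had 9 and 104 counts and was 11.1-fold higher (log2 ratio 3.47, 2.49 to 4.64). COL16A1 (chromosome 1, 31652247 to 31704319, minus strand), a FACIT found near basement membranes, had 1904 and 4149 counts, 111 and 233 CPM, and was 2.10-fold higher (log2 ratio 1.07, 0.99 to 1.15).

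COL16A1 was the highest FACIT in both libraries. It exceeded COL12A1 per length 5.35-fold (4.84 to 5.93) in the parental library and 1397-fold (545 to 5129) in TRPV3-OE, and the summed FACIT level was 52.4 TPM and 101 TPM. Below the minimum, COL9A3, a type IX chain of cartilage, had 18 and 73 counts (3.90-fold higher, log2 ratio 1.96), and COL9A2 had 3 and 8. COL9A1, COL14A1, COL19A1 and COL22A1 had no count, and COL20A1 had 0 and 1.

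The remaining collagens were scarce, with at most 15 counts in a library. Type VI, the beaded filament around many cells, had 15 and 5 counts for COL6A1 (log2 ratio −1.64, −3.46 to −0.11), 6 and 0 for COL6A2 and 8 and 0 for COL6A3. The interval of the log2 ratio ended at −0.29 for COL6A2 and at −0.83 for COL6A3. COL13A1, a transmembrane collagen of adhesion sites, had 15 and 0 counts, and the interval of its log2 ratio ended at −1.90. COL23A1 (1 and 0), COL26A1 (0 and 1), COL28A1 (3 and 1) and COL24A1 of the fibrillar group (0 and 1) were at the level of single counts. COL6A5, COL6A6, COL10A1 and COL25A1 had no count. Over the 17 members with at least 20 counts 7 were lower and 5 higher, beside 6.76% and 7.85% of all such genes. Over the 32 with any count 12 were lower and 5 higher, beside 4.9% and 5.89%.

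The make-up of the collagen transcripts differed accordingly. In the parental library COL8A1 (20.9% of collagen TPM), COL7A1 (19.1%) and COL4A2 (16.3%) led, and 8 genes made up 91.1%. In TRPV3-OE COL7A1 (33.5%) and COL16A1 (25.3%) made up 58.8% between them. By group, the fibrillar share was 9.06% in the parental and 3.23% in the TRPV3-OE library, and the basement membrane share 37.4% and 25.1%. The FACIT share was 13.1% and 27.1%, and that of the others 40.4% and 44.6%. All these shares rest on gene lengths that merge every annotated exon of a gene, so a gene with long unused exons is understated.

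**Figure D4:**
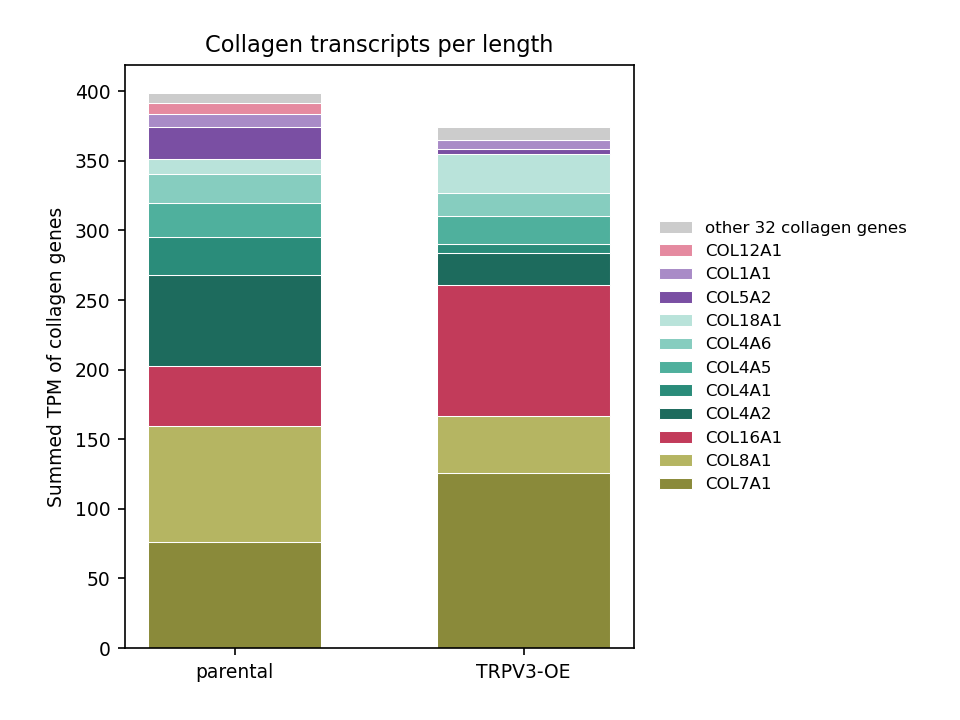
Summed TPM of the collagen genes in the parental and TRPV3-OE library (bars start at 0, 1 library per group), stacked by gene. The bars reach 399 and 374 TPM; COL7A1 and COL16A1 fill more of the TRPV3-OE bar, and COL4A2, COL4A1, COL8A1 and COL5A2 less.

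Neighbouring genes did not share most of these differences. COL12A1, COL5A2 and COL27A1 were lower than all 50 of their nearest measured genes, and COL21A1 was higher than all 50 of its own. COL16A1 was higher than 49 of 50 and COL7A1 than 48 of 50, while COL4A1 was lower than 48 and COL4A2 lower than 46. After subtraction of the local median, 6 members were lower and 2 higher, beside 3.75% and 5.09% of the 11438 measured genes with a local median. No member shared exon bases with another gene on its own strand in the deposited gene models, so ambiguous overlaps did not remove its reads. The genes are built of many small exons, with a median of 47 merged exons over the 43 genes and 54 over the measured ones, against 11 over all measured genes.

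RefSeq promoter windows matched 31 of the 43 genes and 10 of the 13 measured ones, in 14 windows; those not matched were COL1A1, COL5A2 and COL8A1. The CCAAT box lay in 4 of the 14 windows, against 34.6% of 35116 windows of all genes, so it was not more frequent in the members. The 4 windows were those of COL4A1, COL4A2, COL4A5 and COL4A6, and no other of the 10 measured members searched had one. The windows of each of these pairs share bases, so the 4 are not independent. The GC box lay in 10 of the 14 windows, against 44.95% of all; COL4A6 holds it in another of its windows than the one shown. The TATA box (TATAAA) lay in windows of COL7A1 and COL18A1 (11.5% of all), and the E-box CAGGTG in that of COL16A1 (20.6% of all). The AP-1 site (TGANTCA) lay in none of the 14 (7.71% of all). Each was searched on both strands, with no overlap between motifs of different kinds required or barred, and a match is a description of letters.

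The enzymes that fold and modify collagen chains in the endoplasmic reticulum had 1 of 17 measured members lower and 1 higher, a called share near that of all measured genes (11.8% against 10.7%), and a median log2 ratio of 0.02. P3H2, a prolyl 3-hydroxylase that acts on type IV chains, had 257 and 36 counts (7.42-fold lower, log2 ratio −2.89, −3.44 to −2.38). P4HA1, a catalytic subunit of prolyl 4-hydroxylase, had 1664 and 3524 counts (2.04-fold higher), and 0.58 was left of its log2 ratio of 1.03 after subtraction of the local median. P4HA2 had a log2 ratio of 0.78 and P3H3 of −0.88.

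Export, trimming and crosslinking genes had 2 of 10 measured members lower and 0 higher (median −0.47), beside 5.35% and 5.31% of all measured genes. LOXL2, a lysyl oxidase that crosslinks type IV collagen, had 3756 and 1025 counts (3.81-fold lower), and LOXL1 had 109 and 55 (2.06-fold lower). The log2 ratio of LOXL1 was −1.04 and fell short of 2-fold with total counts (−0.99), upper quartile scaling or a prior count of 5 (−0.98 each) and after local subtraction (−0.92). SEC31A, a coat protein of the vesicles that leave the endoplasmic reticulum, had a log2 ratio of −0.73 beside a local median of −0.75, and LOXL3 one of −0.71.

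Of 9 measured receptors 2 were lower and 1 higher (median −0.33), beside the same 5.35% and 5.31%. MRC2, which takes up collagen for breakdown, had 1354 and 383 counts (3.68-fold lower), and CD44 had 6020 and 2256 (2.77-fold lower, with a log2 ratio of −1.47 that became −0.75 after subtraction of the local median). ITGA1, a collagen-binding integrin chain that prefers type IV, had 119 and 320 counts (2.59-fold higher), and ITGA2, which prefers type I, had a log2 ratio of 0.67. Of the collagen-degrading proteases the 2 measured, MMP2 (124 and 4 counts) and MMP14 (5315 and 2487 counts), were both lower, beside 5.35% of all measured genes. Of those below the minimum, MMP1 had 43 and 0 counts, CTSK 45 and 45, and MMP9 8 and 17, while MMP8 and MMP13 had none.

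Matrix proteins that bind collagen had 3 of 7 measured members lower and 1 higher (median −0.06), again beside 5.35% and 5.31%. FN1 (fibronectin) had 25699 and 2538 counts, SPARC, a collagen chaperone of the matrix, 11275 and 3562 (3.29-fold lower), and THBS1 20335 and 6842. NID2, a nidogen that links laminin to type IV collagen, had 55 and 200 counts (3.50-fold higher). Below the minimum, the other nidogen NID1 had 13 and 2 counts, BGN 30 and 0, and DCN 5 and 0. TNXB had 3 and 2 counts and FMOD 0 and 1, while LUM, POSTN and COMP had none. The 5 lists were chosen with earlier results of these libraries known, so their counts are a description.

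**Figure D5:**
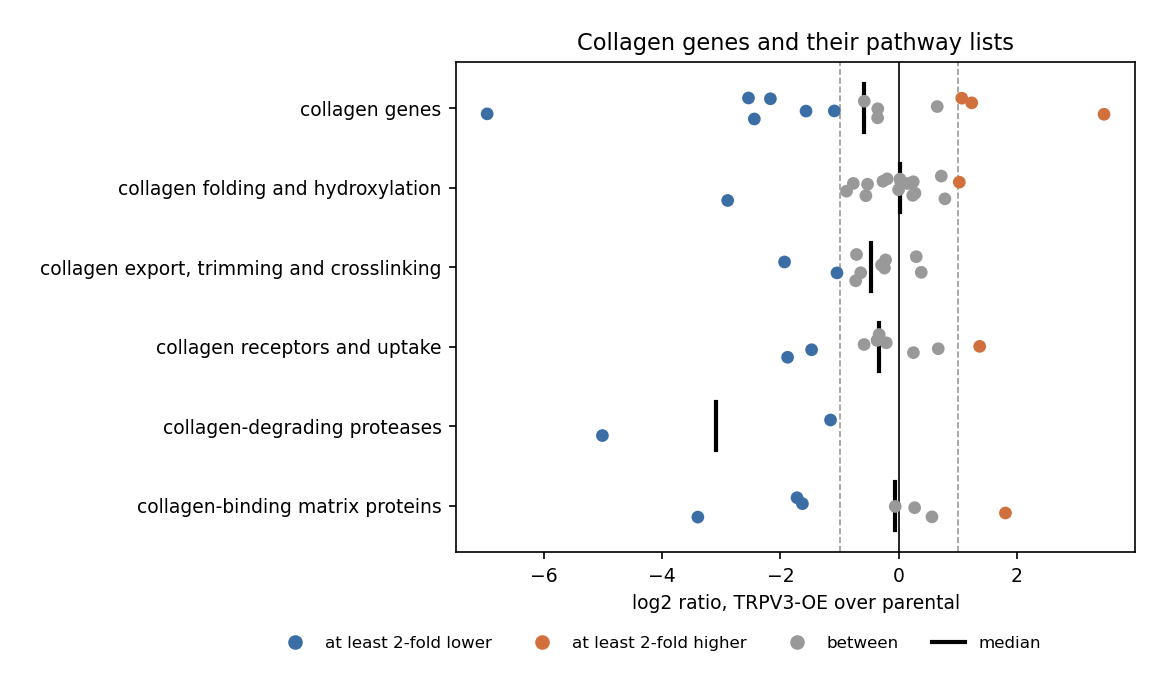
log2 ratio of TRPV3-OE over parental for the measured genes of the collagen family and of 5 pathway lists (points, 1 gene each; black bars are medians, dashed lines 2-fold). The folding enzymes spread from −2.89 to 1.03 with a median of 0.02, and the collagen genes from −6.96 to 3.47 with a median of −0.58.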

How the data were processed

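RNA was sequenced from 1 parental and 1 TRPV3-OE library, grouped by the genotype label. The deposited values are raw counts per gene, made by the authors with featureCounts 1.5.0-p3 with reads assigned to the opposite strand, on Ensembl release 87 gene models (GRCh38.p7), per the file headers. No option for multi-mapping or overlapping reads appears there, so by default such reads were not counted. The submitters' processing notes also list STAR and DESeq2, with no version.

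Symbols were matched through a gene name table. Counts were scaled with TMM factors (edgeR 4.0.16, R 4.3.3), 1 count being 0.0584 CPM (parental) or 0.0562 CPM (TRPV3-OE). Ratios carry exact conditional binomial (Clopper-Pearson) 95% intervals, with 0 set to 0.5. TPM used the deposited gene lengths. Calls were made over all genes with at least 100 summed counts, and no model was fitted. The calculation was tested on simulated data. Alternatives were scaling by total counts, DESeq2 1.42.0 size factors or upper quartile, count minimums of 1, 20 and 500, limits of 1.5-fold and 4-fold, a prior count of 5, thinning to equal totals, means, COL17A1 added, other group borders, and subtraction of the median of the 50 nearest measured genes.

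Named were all members, by count class, and up to 4 measured genes of each pathway list with the largest absolute log2 ratio. The proteases and collagen-binding matrix proteins below the minimum were named after their values were seen. So were the fibroblast and endothelial markers with counts. The members and lists were chosen with earlier results of these data known. Intervals came from scipy 1.17.1 and figures from matplotlib 3.10.9, under Python 3.11.15.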

Additional observations from a re-analysis of the deposited data

How the results depend on the processing

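No paired analysis was possible because there is a single library of each line, and none could be left out. The counts of 6 lower and 3 higher members were the same under total counts, DESeq2 size factors, upper quartile scaling and thinning. With no minimum beyond 1 count there were 12 lower and 5 higher among 32 members, with a median log2 ratio of −0.82. Leaving out members at or under 3 counts in both libraries and setting the 0 of 5 genes to 3 counts gave −0.79 over 25 members. With a minimum of 20 counts there were 5 higher members and a median of −0.36. These differences follow from more genes qualifying. At a 4-fold limit 1 member was higher. The median became −0.83 with COL17A1 added and −0.89 as a mean. Under other scalings and a prior count of 5, 51 of 52 values of measured members stayed within their counting interval and 1, COL7A1 at 0.71 under upper quartile, moved. Subtraction of the local median moved 7 of 13. A gene with few counts has a wide interval, so small differences in the 19 members with 1 to 99 counts were not detectable at this depth.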

Other observations

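Proteins with a collagen helix that lack a COL symbol were examined as a list of 22 genes, chosen after the data files were opened. Of these, 12 had no count in either library, among them COLEC10, COLEC11, COLEC12, MARCO, ADIPOQ, GLDN, EDA and SFTPA1. Of the 3 measured genes, SCARA3, a scavenger receptor-like protein induced by oxidative stress, had 348 parental and 29 TRPV3-OE counts, a 12.5-fold lower level with a log2 ratio of −3.64 (−4.24 to −3.09). EMILIN2, an elastic fibre glycoprotein, had 307 and 397 counts, and C1QTNF6 had 305 and 356. CTHRC1, a secreted protein with a short collagen repeat, had 6 and 13 counts. The 10 antisense, divergent and pseudogene loci named after collagen genes, such as COL4A2-AS1, COL18A1-AS1, COL5A1-AS1 and COL6A4P1, had no count in either library.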
